A study of Mus musculus with 24 samples.

Results

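Committed bone marrow progenitors of 2 inbred mouse strains, DBA/2 (D2) and C57BL/6 (B6), were compared by gene expression on bead arrays. All arrays labelled as L-S-K+ progenitors were taken, 3 of D2 and 3 of B6, which are 6 of the 24 arrays in the series. The other 18 arrays hold LSK multilineage cells, Gr1+ myeloid cells and Ter119+ erythroid cells of the same strains, again 3 per strain and cell type. Total RNA came from primary bone marrow in every group, and the labels give no treatment, transgene or age. Within each strain the arrays are numbered 1 to 3 below, and every mean, SD or SE over a strain has n = 3. The labels do not say whether the 3 arrays of a strain came from separate animals, so the tests weigh differences against the spread of these arrays, which may be technical.

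L-S-K+ cells lack mature lineage markers and Sca-1 and carry Kit, the receptor for stem cell factor. This gate holds the progenitors that give rise to granulocytes, monocytes, mast cells, basophils, megakaryocytes and red cells, and it lies between the multipotent LSK cells and the mature Gr1+ and Ter119+ cells. D2 and B6 mice are long known to differ in the behaviour of their blood stem and progenitor cells and in the major histocompatibility complex (MHC) that they carry. They also differ in susceptibility to Friend leukaemia virus, for which D2 mice are susceptible and B6 mice resistant.

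The progenitor labels were checked against marker genes. Kit, the transcription factors Myb, Gata1 and Gata2, the granule enzyme Mpo and the surface protein Cd34 were detected on all 6 arrays, and none of them passed the test between the strains (adjusted p from 0.533 to 0.996). Mpo averaged 14.52 ± 0.38 (SD) in D2 progenitors and 14.81 ± 0.07 in B6 progenitors on the log2 intensity scale, against 12.71 and 12.61 in D2 and B6 LSK cells. Itgam and Cd3e, markers of mature myeloid cells and T cells, were detected on none of the 6 arrays. They were the only 2 tested of 11 listed markers outside the gate. Other genes of maturing cells were detected, such as Cd79b, Ltf and Hba-a1 on all 6 arrays and Cd3d on 2 D2 arrays. The 2 markers therefore do not show that the samples were free of mature cells. Cebpa did not pass the detection filter and Ly6a, which encodes Sca-1, was not measured here. A probe was detected, at a detection p under 0.01, for 17.5% to 26.4% of probes on the D2 arrays, with the lowest share on array 1, and for 22.9% to 26.6% on the B6 arrays. Arrays correlated across probes at r from 0.960 to 0.986 within D2, from 0.983 to 0.984 within B6 and from 0.945 to 0.965 between the strains.

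Of 7925 genes tested, 443 (5.59%) were called different between D2 and B6 progenitors, that is, at an adjusted p under 0.05 in the moderated test of limma. Higher in D2 were 188 genes (2.37% of those tested), and 255 (3.22%) were lower. At an unadjusted p under 0.05 there were 1087 genes. The arrays of the strains did not overlap for 440 of the 443 called genes, against 1579 (19.9%) of all genes tested. The log2 differences of called genes, always D2 minus B6, ran from -5.76 to 3.73, and 259 called genes differed by at least 2-fold. Of the 443, 251 were detected on all 6 arrays, 12 on the 3 D2 arrays alone, and 78 on the 3 B6 arrays alone. The balance of higher and lower calls depended on how the arrays were scaled to each other. Quantile normalization sets the median difference of all genes at 0.00, whereas median scaling put it at -0.45 and scaling to the 75th percentile at -0.38. With median scaling 6 genes were called higher and 112 lower (5.09% of the calls higher, against 42.4%), and with the 75th percentile 14 and 173 (7.49% higher). The calls also shifted upward when detection was asked for on all 6 arrays (130 higher and 108 lower, 54.6% higher) and with array weights (463 higher and 408 lower, 53.2% higher). The 2 scalings differ from each other by a constant, so relative to the median of all genes they give a list the same value. Set against that value, the gene lists described below had the same direction with quantile normalization, except the lineage transcription factors (0.07 with quantile normalization, -0.02 with scaling). The size was not kept, going from 0.07 to 0.51 for B lymphoid genes, 6 of whose 12 tested members were undetected. Nor were all calls kept. Under both scalings late neutrophil genes called higher fell from 8 to 0, immediate early genes from 5 to 0 and inflammatory NF-kB target genes from 3 to 0. Primary granule genes kept their 2 lower calls.

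Among the 80 called genes named here, no direction was reversed by any alternative. Median scaling kept the calls of 25 of the 80, and these were Mst1r, Rap1gap and H2-K1 among genes higher in D2, and Hdc, Fcer1g, Ctsc, Nkg7, Slpi, Psmb5, Psmb6, Psmb9, H2-T10, Ifi35, Haao, Polr1b, Stard10, Wdr46, Ttc27, Rbbp9, Ccdc124, Rpl29, Erdr1, Samsn1, Abhd16a and Tomm22 among genes lower in D2. Scaling to the 75th percentile kept 35 of the 80.

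Mst1r was detected in D2 progenitors and not in B6 progenitors. It encodes RON (also called Stk), the receptor tyrosine kinase for macrophage-stimulating protein. Its gene is the Friend virus susceptibility locus Fv2, whose susceptible allele makes a short receptor from an internal start site. The log2 level of Mst1r was 8.00, 7.97 and 7.96 on the D2 arrays, against 4.21, 4.2 and 4.33 on the B6 arrays. All 3 D2 arrays lay far above all 3 B6 arrays, and the probe was detected on 3 of 3 D2 arrays, against 0 of 3 B6 arrays. The level was at least 9.35-fold higher in D2 (fitted log2 difference 3.73 ± 0.14 SE, adjusted p = 2.84e-15). A second Mst1r probe was also called higher in D2, by 1.29 on the log2 scale. The strain difference of the first probe was 0.05 in LSK cells and 0.03 in Gr1+ cells, neither of which passed the test, and 0.49 in Ter119+ cells (adjusted p = 0.0221). Its level was near background in both strains there, at 4.34 in D2 and 4.29 in B6 LSK cells and 4.48 and 4.45 in Gr1+ cells. In Ter119+ cells it was 4.83 and 4.34. A strain difference could therefore hardly show in those cells, and the departure follows the D2 progenitor level. The progenitor difference exceeded the mean of the other 3 cell types by 3.54 ± 0.17 (adjusted p = 1.07e-12), and this call was lost under none of the alternatives tried. Of 8 tested genes of the list of RON, its ligand processing and its signalling partners, Mst1r was the only one called. The adaptors Gab1 (0.04) and Shc1 (-0.29), the phosphatase Ptpn11 (0.12) and the kinase subunit Pik3r1 (0.34) were detected on all 6 arrays and did not pass.

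The RefSeq annotation gives Mst1r 2 start sites, 8114 bases apart, so the 250 bases before each are shown to let the internal start be seen beside the full-length one. Both are on the plus strand of chromosome 9 in GRCm38.p6, the B6 reference genome, and D2 alleles were not read here. The first window is chr9:107906639-107906888 and the second is chr9:107914753-107915002. Capitals mark matches to GATAA, the core of the site bound by GATA factors, searched on both strands.
Mst1r first start: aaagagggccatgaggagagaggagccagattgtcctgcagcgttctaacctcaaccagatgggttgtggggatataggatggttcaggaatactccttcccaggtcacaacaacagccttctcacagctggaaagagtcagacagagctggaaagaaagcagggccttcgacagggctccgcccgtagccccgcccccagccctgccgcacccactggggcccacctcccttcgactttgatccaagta
Mst1r second start: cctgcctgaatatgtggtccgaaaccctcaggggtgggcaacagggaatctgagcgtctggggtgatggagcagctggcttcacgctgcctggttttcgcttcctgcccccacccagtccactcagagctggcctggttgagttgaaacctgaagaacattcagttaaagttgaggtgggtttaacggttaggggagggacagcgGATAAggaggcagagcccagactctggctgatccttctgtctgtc
The window of the first start holds no GATAA, and that of the second holds 1, which begins 45 bases before the start (position -45). Among 32851 such windows, 22.6% hold the motif, so a match describes the letters and no more. Probe positions were not used here, so which of the transcripts each Mst1r probe reads is not known.

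In the test of whether the progenitor difference departs from the mean of the other 3 cell types, 71 of 7925 genes passed (0.896%), 36 above and 35 below. One of the compared arrays was weak, since D2 LSK array 2 had 12.6% of its probes detected, against 22.3% and 25.3% on D2 LSK arrays 1 and 3. Fits without an array of the other cell types were not tried. Of these 71, 45 were also called between the strains in progenitors, and 13 were called between the strains in progenitors and in no other cell type. Without B6 array 1 there were 46. With median scaling or the 75th percentile 3 genes passed, and of the 20 genes named here that departed, Mst1r and Fcer1g kept their call under both. The 12 genes shown by cell type have the largest departures each way among genes also called in progenitors, with provisional symbols left out.

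**Figure D1:**
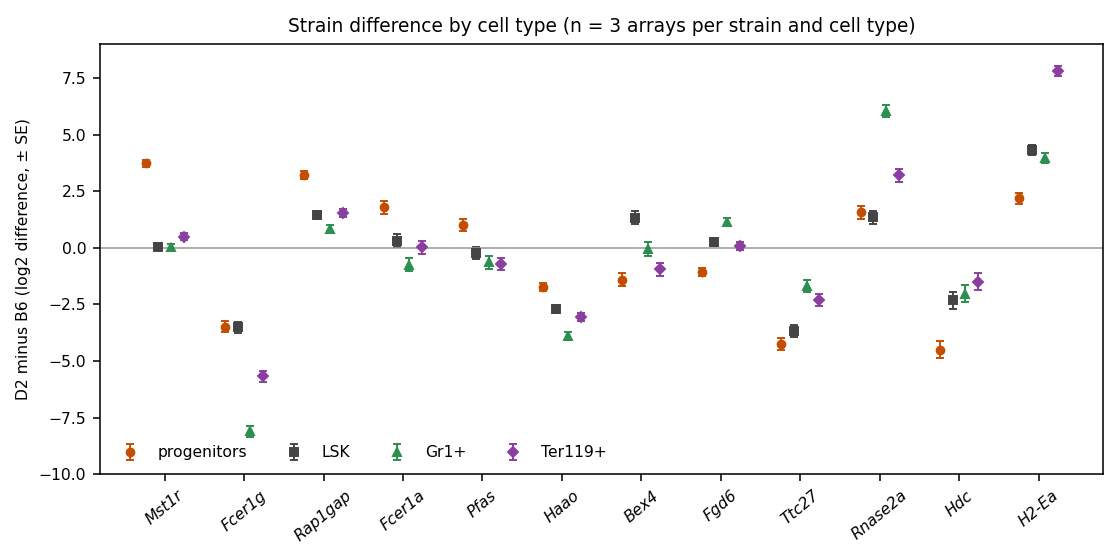
D2 minus B6 log2 difference (vertical axis) of 12 genes in progenitors, LSK, Gr1+ and Ter119+ cells. These genes have the largest departures each way among genes also called in progenitors, with provisional symbols left out. Error bars are SE, with n = 3 arrays per strain and cell type. Mst1r stands at 3.73 in progenitors and between 0.03 and 0.49 in the other 3 cell types, where its mean level was at most 4.83 in either strain. H2-Ea is higher in D2 in all 4. For probes near background in 1 strain (H2-Ea in B6, and Fcer1g, Haao and Ttc27 in D2) the plotted difference follows the level in the other strain.

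Rap1gap, which switches off the small GTPase Rap1, was also higher in D2 progenitors. Its log2 level was 8.47, 8.48 and 8.48 on the D2 arrays, against 5.14, 5.47 and 5.18 on the B6 arrays, with no overlap. The difference of 3.21 ± 0.18 (adjusted p = 3.92e-12) was 1.93 ± 0.21 above the mean of the other cell types (adjusted p = 6.03e-06), where it was also positive (1.45 in LSK, 0.84 in Gr1+ and 1.55 in Ter119+ cells). Pfas, an enzyme of purine synthesis, was 1.00 ± 0.27 higher in D2 progenitors (adjusted p = 0.026) and lower in D2, without passing, in the other 3 cell types (-0.22, -0.64 and -0.71). Its B6 arrays were uneven, at 9.39, 9.78 and 8.09, and leaving out D2 array 1, D2 array 3 or B6 array 3 ended the call (adjusted p = 0.0790, 0.124 and 0.245). In the opposite direction, the guanine exchange factor Fgd6 was at least 1.47-fold lower in D2 progenitors and 1.16 higher in D2 Gr1+ cells, so the sign of its strain difference turned (departure -1.56, adjusted p = 6.76e-05). Bex4 likewise was lower in D2 progenitors (-1.40 ± 0.30, adjusted p = 0.0032) and higher in D2 LSK cells (1.33, adjusted p = 0.0042). The other Bex4 probe gave -0.77 in progenitors and did not pass (adjusted p = 0.181). Haao, which acts in tryptophan breakdown, and Ttc27 were undetected on every D2 progenitor array and at least 2.02-fold and 11.3-fold lower. Neither of the 2 other Haao probes passed (-0.01 and -0.37). In D2 the probes used for Haao and Ttc27 stayed between 4.25 and 4.37 in all 4 cell types, so their departures follow the B6 level. In B6, Haao averaged 6.06 in progenitors and 7.07, 8.17 and 7.37 in LSK, Gr1+ and Ter119+ cells, and Ttc27 averaged 8.54 in progenitors and 8.02, 6.00 and 6.57 in the others.

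Receptors for growth factors and other surface proteins that define progenitors showed 0 genes called by limma, and 0 at an unadjusted p under 0.05, among 13 tested (of 20 listed), with a median difference of 0.13, against 0.00 over all genes. The transferrin receptor Tfrc (-0.37, adjusted p = 0.493) and the Fc receptor Fcgr3 (-0.31, adjusted p = 0.777) had the largest differences. Fcgr3 nonetheless departed from the other cell types (-1.28 ± 0.31, adjusted p = 0.0488), since it was higher in D2 Gr1+ (1.25) and Ter119+ cells (1.45). Over all genes 2.37% were called higher and 3.22% lower, the shares to set beside the counts of each gene list. Of 16 tested lineage transcription factors, 1 was called. This was Lyl1, a bHLH factor of early progenitors, 0.78 ± 0.23 higher in D2 (adjusted p = 0.0476), and its call ended when D2 array 1, 2 or 3 or B6 array 1 or 3 was left out (adjusted p from 0.0755 to 0.266). Gata1, Gata2, Klf1, Tal1, Cebpe, Gfi1 and Myb did not pass, and ran from -0.02 (Myb) to 0.87 (Klf1).

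Of 12 tested stem cell genes (of 20 listed), 2 were called higher in D2 and 0 lower, with a list median of 0.22. Esam, an adhesion molecule of stem cells and endothelium, was at 7.74, 7.72 and 7.46 on the D2 arrays, against 5.01, 6.26 and 5.51 on the B6 arrays. The strains did not overlap, and the difference of 2.04 ± 0.29 passed (adjusted p = 2.6e-05). Ndn encodes necdin, an imprinted growth suppressor linked to stem cell quiescence. Its level was 6.50, 6.05 and 5.77 in D2 progenitors and 4.46, 4.95 and 4.33 in B6 progenitors (difference 1.53 ± 0.26, adjusted p = 0.000333). Both genes were also called higher in D2 LSK cells, by 1.63 and 1.52. In progenitors, latexin (Lxn), a stem cell regulator known to differ between the strains, was at 6.31 ± 0.16 in D2 and 6.40 ± 0.28 in B6 and did not pass (-0.09, adjusted p = 0.956).

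Of the mast cell and basophil genes, 13 of 25 listed were tested, and 3 were called higher and 2 lower in D2, with a median of 0.05. Fcer1a encodes the chain of the high-affinity IgE receptor that binds IgE. It was at 6.86, 6.75 and 6.86 on the D2 arrays, against 4.41, 5.42 and 5.29 on the B6 arrays, higher on every D2 array than on any B6 array. The difference of 1.78 ± 0.28 (adjusted p = 7.98e-05) was 1.92 ± 0.32 above the mean of the other cell types (adjusted p = 0.00161), in none of which it passed. A second Fcer1a probe gave 0.71 and did not pass (adjusted p = 0.06). Fcer1g encodes the signalling chain of the same receptor and of other Fc receptors. It went the other way, at 4.27, 4.15 and 4.29 on the D2 arrays, on none of which it was detected, against 7.58, 8.11 and 7.47 on the B6 arrays, which puts D2 at least 6.40-fold lower (adjusted p = 1.51e-10). In D2 its probe stayed between 4.21 and 4.31 in all 4 cell types, while in B6 it averaged 7.82 in LSK, 12.34 in Gr1+ and 9.89 in Ter119+ cells.

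Hdc, the enzyme that makes histamine, was at 5.73, 6.63 and 7.11 on the D2 arrays, against 10.78, 11.10 and 11.05 on the B6 arrays. The gap between the strains was wider than the spread within either of them, and the difference of -4.49 ± 0.37 passed (adjusted p = 4.39e-09). It was called lower in D2 by its other probe too (-2.13), and its departure from the mean of the other cell types was -2.54 ± 0.43 (adjusted p = 0.0019). Hdc was also called lower in D2 in LSK (-2.31), Gr1+ (-2.03) and Ter119+ cells (-1.49). Its level was highest in Gr1+ cells, at 11.34 in D2 and 13.37 in B6. Cpa3, a mast cell carboxypeptidase, was higher in D2 by 0.99 ± 0.27 (adjusted p = 0.0276), with levels of 8.26, 8.21 and 8.19, against 6.79, 7.70 and 7.20 in B6. Alox5, which starts leukotriene synthesis, was higher by 0.82 ± 0.19 (adjusted p = 0.00734), while its 2 other probes did not pass (0.09 and 0.21). The second probe of Cpa3 gave 0.96 without passing (adjusted p = 0.0906). The call of Cpa3 ended when any array but B6 array 2 was left out (adjusted p from 0.0668 to 0.211), and that of Alox5 without D2 array 3 (0.0731) or B6 array 2 (0.0577), so without D2 array 3 the list held 1 gene called higher. The basophil protease Mcpt8 (0.96) and the mast cell integrin chain Itgb7 (-0.53) did not pass. Of the eosinophil genes 7 were tested and 1 was called. Rnase2a, an eosinophil ribonuclease, was at 5.05, 5.61 and 6.80 on the D2 arrays, against 4.23, 4.28 and 4.24 on the B6 arrays (1.56 ± 0.28, adjusted p = 0.000532), and it differed far more in Gr1+ cells (6.04).

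**Figure D2:**
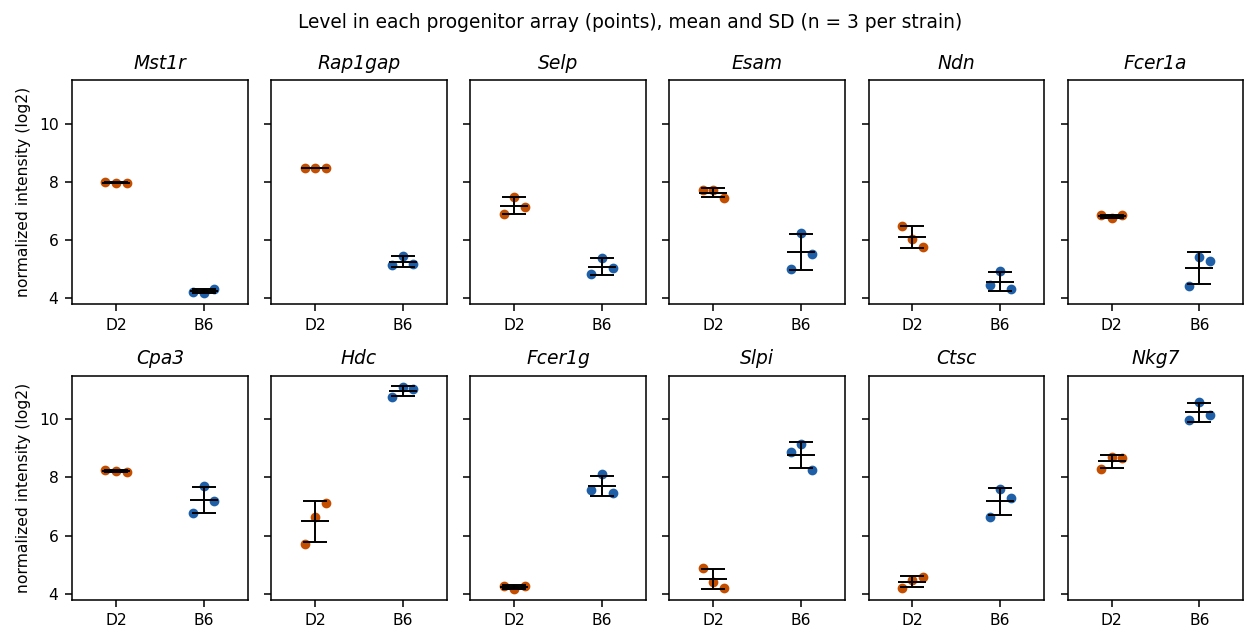
Normalized log2 intensity (vertical axis) of 12 genes on each of the 6 progenitor arrays, D2 at the left and B6 at the right of each panel, with points for arrays and bars for the mean and SD (n = 3 per strain). The strains do not overlap in any panel. Mst1r, Rap1gap, Selp, Esam, Ndn, Fcer1a and Cpa3 are higher in D2, and Hdc, Fcer1g, Slpi, Ctsc and Nkg7 are lower.

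Of 11 tested primary granule genes, which promyelocytes transcribe, 0 were called higher in D2 and 2 lower, and the median was -0.17. Mpo (-0.29) and the serine proteases Elane (-0.17), Prtn3 (0.03) and Ctsg (0.03) did not pass. Ctsc, which activates these proteases by trimming them, was at 4.2, 4.48 and 4.58 on the D2 arrays, detected on none of them, against 6.66, 7.59 and 7.28 on the B6 arrays, and was at least 4.39-fold lower (adjusted p = 1.18e-09). Of its 2 other probes, 1 was called lower (-1.27) and 1 did not pass (-0.37). Nkg7, a membrane protein of cytotoxic granules, was at 8.28, 8.71 and 8.66 in D2 progenitors and 9.98, 10.60 and 10.15 in B6 progenitors (-1.69 ± 0.27, adjusted p = 0.000104). Both genes were called lower in D2 LSK cells as well (-3.43 for Ctsc and -3.23 for Nkg7).

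Late neutrophil genes were called mostly in the other direction. Of 23 tested (of 26 listed), 8 were called higher in D2 and 1 lower, with a median of 0.66. Over all genes 2.37% were called higher and 3.22% lower. S100a8 and S100a9, the subunits of calprotectin, were 1.54 ± 0.35 and 1.88 ± 0.40 higher (adjusted p = 0.00531 and 0.00326). The levels of S100a8 were 11.76, 11.61 and 13.46 on the D2 arrays, against 10.61, 11.18 and 10.42 on the B6 arrays. Fpr2, a receptor for formylated peptides, was at 6.93, 7.83 and 9.51 on the D2 arrays, against 6.09, 5.62 and 5.95 on the B6 arrays (2.20 ± 0.40, adjusted p = 0.000667). The strains did not overlap for either gene, and D2 array 3 was the highest of the 6 for both. Lactoferrin (Ltf), cathelicidin (Camp), lipocalin 2 (Lcn2), Cd177 and Lrg1 were higher by 1.42 to 1.66. Second probes of Ltf (1.21) and Cd177 (0.35) did not pass. Over the 23 genes the mean level was 6.53, 6.69 and 7.77 on the D2 arrays, against 6.35, 6.46 and 6.41 on the B6 arrays, so D2 array 3 stood apart from the rest. Cxcr2, Anxa1, Itgam, Mmp25, Padi4 and Trem1, which belong to more mature neutrophils, were detected on none of the 6 arrays. By contrast, 13 of the 23 were detected on all 6, among them Mmp9 (1.03) and Retnlg (1.66), which did not pass. Il1b was detected on 2 D2 arrays and 0 B6 arrays. Of the 23 differences, 19 were positive and 4 negative. In these bulk samples a change in the share of a cell type and a change in RNA per cell cannot be told apart.

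Without D2 array 3, 2 late neutrophil genes remained called higher in place of 8 (S100a9 and Fpr2), and the adjusted p of the other 6 ran from 0.0556 to 0.394. Without B6 array 1, 2 or 3 there were 5, 4 and 5 calls, and with median or 75th percentile scaling 0 were called higher. Slpi, a secreted inhibitor of neutrophil elastase, opposed the list. It was at 4.90, 4.41 and 4.21 on the D2 arrays, detected on none, against 8.89, 9.14 and 8.27 on the B6 arrays, which puts D2 at least 13.2-fold lower (adjusted p = 9.93e-08). In Gr1+ cells it averaged 6.01 in D2 and 12.45 in B6. Of 10 tested monocyte and macrophage genes 2 were called, both higher in D2. Lysozyme (Lyz2) was higher by 1.56 ± 0.39 (adjusted p = 0.014) and the lipopolysaccharide receptor Cd14 by 0.98 ± 0.27 (adjusted p = 0.0311). The 2 other Lyz2 probes did not pass (0.02 and 0.43). The receptor Csf1r (0.19) did not pass, and Adgre1 and Cx3cr1 were detected on none of the 6 arrays. Without D2 array 3 or B6 array 1 neither Lyz2 nor Cd14 was called (Lyz2 adjusted p = 0.158 and 0.0767, Cd14 0.246 and 0.0695). Cd14 was also lost without D2 array 2 (0.124), B6 array 2 (0.0721) or B6 array 3 (0.149).

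**Figure D3:**
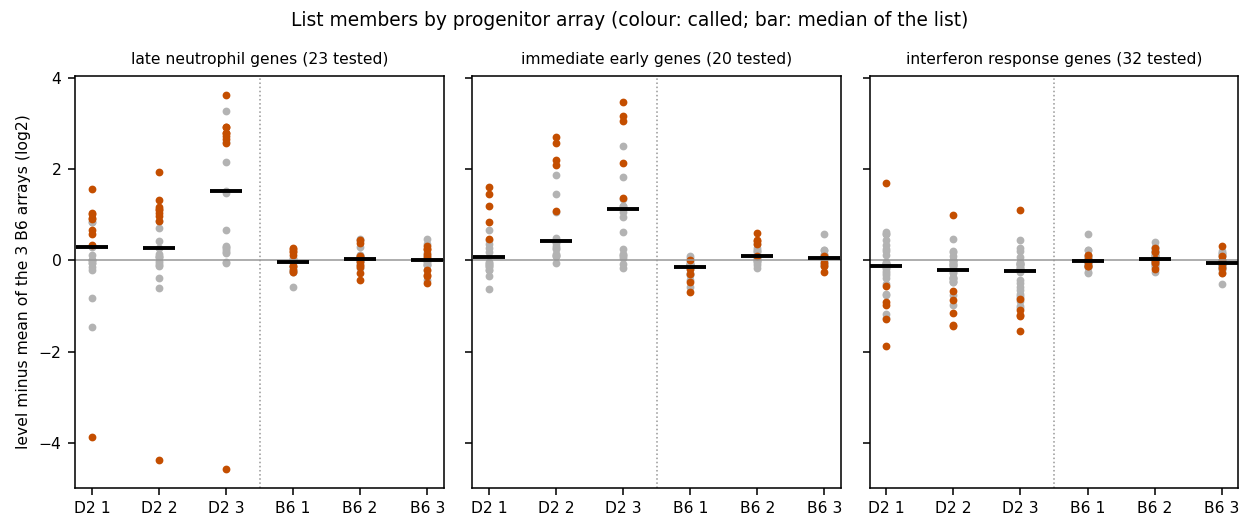
Level of each tested member minus its mean over the 3 B6 arrays (log2, vertical axis) on the 6 progenitor arrays, for late neutrophil, immediate early and interferon response genes, with called genes in colour and a bar at the list's median. Late neutrophil and immediate early genes stand highest on D2 array 3, and Slpi is the called late neutrophil gene below -3 on every D2 array.

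Megakaryocyte and platelet genes had 3 members called higher in D2 and 0 lower among 12 tested (of 22 listed), with a median of 0.45. Beside Rap1gap these were P-selectin (Selp) and multimerin 1 (Mmrn1). Selp was at 6.92, 7.50 and 7.14 on the D2 arrays, against 4.83, 5.41 and 5.03 on the B6 arrays (2.10 ± 0.28, adjusted p = 1.11e-05). Mmrn1 was higher by 0.78 ± 0.21 (adjusted p = 0.0229), a call that ended without D2 array 1 (0.174) or without B6 array 1, 2 or 3 (0.0519, 0.0762 and 0.0925). Several genes that mark the lineage differed less and did not pass. Among them were Itga2b (0.13), Vwf (0.03), Pf4 (-0.07) and the glycoproteins Gp1bb (0.43), Gp5 (0.23) and Gp9 (0.46). F2r (0.92) and Nrgn (0.74) did not pass either. Of the 12 differences 11 were positive, and 6 had an unadjusted p under 0.05. The mean level over the 12 genes, the 3 called ones included, was 6.92, 6.83 and 6.73 on the D2 arrays. It was 5.96, 6.23 and 6.02 on the B6 arrays, without overlap.

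Among 23 tested erythroid genes 1 was called higher and 1 lower, and the median was -0.18. Both act in haem synthesis. Alad, the enzyme of its second step, was at 13.14, 12.36 and 12.67 on the D2 arrays, against 11.91, 12.04 and 11.66 on the B6 arrays (0.85 ± 0.20, adjusted p = 0.0091). Its call ended without D2 array 1 (adjusted p = 0.0855) or B6 array 3 (0.0711). Ppox, which acts near the end of the pathway, was lower by 1.43 ± 0.33 (adjusted p = 0.00686), while the second probe of Ppox (-0.26) missed the threshold. The remaining tested enzymes of the pathway (Alas2, Uros, Urod, Cpox and Fech) ran from -0.31 to -0.16 and did not pass. Among 12 tested B lymphoid genes and 8 tested T and NK cell genes, 0 were called by limma and 0 had an unadjusted p under 0.05. Their largest differences were 0.32 for Cd79b (adjusted p = 0.70) and -0.28 for Vpreb1 (0.909), and 0.41 for Cd3d (0.479) and 0.24 for Il7r (0.816).

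Genes of the MHC differed in both directions. Of 21 tested class I and antigen processing genes, 3 were called higher and 3 lower, with a median of -0.05. The transplantation antigen H2-K1 was at 9.21, 8.99 and 9.24 on the D2 arrays, against 5.66, 5.92 and 4.92 on the B6 arrays (3.65 ± 0.26). Another of its probes was called lower in D2 (-2.32), and the remaining probe did not pass (-0.27). The mean of its probes was not called (0.35, adjusted p = 0.409). H2-Q6 was higher by both probes (2.40 and 3.79), and H2-Q7 was lower by 1.34 ± 0.38 (adjusted p = 0.0376). H2-Q8 was called higher by 1 probe (0.84 ± 0.20, adjusted p = 0.00832), while its other probe gave -0.75 without passing, and the mean of both was not called (0.04, adjusted p = 0.987). H2-T10 was at least 3.42-fold lower in D2, though neither of its 2 other probes passed (-0.20 and -0.57). Psmb9, the interferon-induced subunit that replaces Psmb6 in the immunoproteasome, was at 4.28, 4.67 and 4.24 on the D2 arrays, against 8.85, 8.71 and 8.28 on the B6 arrays, and was detected on 1 D2 array (-4.22 ± 0.21, adjusted p = 3.27e-13). H2-Q genes are near-identical copies of each other, so their probes may not tell them apart. Probe sequences were not compared with D2 alleles, so for all genes a difference in transcript level and one in how well the probe binds cannot be told apart. H2-Q7 lost its call when any array but B6 array 3 was left out (adjusted p from 0.0657 to 0.267), and H2-Q8 without D2 array 1 (0.0704) or B6 array 3 (0.0792). Of 13 tested class II and dendritic cell genes 1 was called, namely H2-Ea, whose class II product is missing in the H2b haplotype of B6. The level was at 6.12, 6.68 and 6.85 on the D2 arrays, against 4.22, 4.63 and 4.27 on the B6 arrays, and at least 3.48-fold higher in D2. Its departure from the mean of the other cell types was -3.19 ± 0.26 (adjusted p = 4.79e-08), which follows the D2 level, since in B6 the probe stayed between 4.24 and 4.37 in all 4 cell types. The invariant chain Cd74 (1.00) did not pass.

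Interferon response genes were called lower in D2 progenitors more often than higher. Of 32 tested (of 42 listed), 5 were called lower and 1 higher, 26 had a negative difference, and the median was -0.25. Over all genes lower calls were also the more frequent (3.22% against 2.37%), and 3968 of 7925 differences were negative. Ifi35 was at 5.51, 4.98 and 4.87 on the D2 arrays, against 6.42, 6.40 and 6.42 on the B6 arrays (-1.29 ± 0.25, adjusted p = 0.00121). Rsad2, which encodes the antiviral enzyme viperin, was at 4.26, 4.73 and 5.29 in D2 progenitors and 6.00, 6.16 and 6.23 in B6 progenitors (-1.37 ± 0.22, adjusted p = 0.000145). The ubiquitin-like Isg15 was lower by 1.12 ± 0.26 (adjusted p = 0.00787), the ubiquitin ligase Trim25, which attaches ubiquitin to the RNA sensor RIG-I, was lower by 1.08 ± 0.28 (0.017), and Oas1g, of the family that makes oligoadenylate, by 0.81 ± 0.23 (0.036). The membrane protein Ifitm1 opposed them at 10.65, 9.96 and 10.06 on the D2 arrays, against 8.97, 9.23 and 8.68 on the B6 arrays (1.26 ± 0.22, adjusted p = 0.000389). Its difference was 1.29 ± 0.26 above the mean of the other cell types (adjusted p = 0.00836). Of its 5 kept probes, 2 were called higher (1.26 and 1.78) and 3 did not pass (from -0.04 to 0.26). The mean level over the 32 genes was 6.12, 6.05 and 5.95 on the D2 arrays, against 6.34, 6.40 and 6.30 on the B6 arrays. Without D2 array 3 or without B6 array 3, 3 genes were called lower in place of 5. Oas1g was lost when any array but D2 array 1 was left out (adjusted p from 0.0528 to 0.257), and Trim25 without D2 array 2 (0.0602), D2 array 3 (0.0588) or B6 array 3 (0.119).

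Of the 6 called interferon response genes with a RefSeq start, 3 (Isg15, Oas1g and Rsad2) hold a pair of GAAA separated by 2 bases of any kind, the core of the interferon-stimulated response element, on either strand within 250 bases before the start, as do 2.98% of 32851 windows. The windows of Isg15 (chr4:156200819-156201068) and Rsad2 (chr12:26456453-26456702), both on the minus strand of GRCm38.p6, are shown as examples of genes lower in D2, with the matches in capitals.
Isg15: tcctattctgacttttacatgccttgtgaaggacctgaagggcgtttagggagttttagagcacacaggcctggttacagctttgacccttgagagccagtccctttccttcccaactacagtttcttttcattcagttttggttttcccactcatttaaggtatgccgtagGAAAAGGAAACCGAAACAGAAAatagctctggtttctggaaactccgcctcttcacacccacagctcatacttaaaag
Rsad2: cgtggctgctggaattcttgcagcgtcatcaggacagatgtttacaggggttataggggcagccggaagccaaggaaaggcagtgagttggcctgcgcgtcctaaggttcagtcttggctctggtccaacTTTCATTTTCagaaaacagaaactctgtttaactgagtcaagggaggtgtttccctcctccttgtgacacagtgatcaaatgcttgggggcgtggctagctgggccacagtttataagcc
Isg15 holds 3 overlapping matches and Rsad2 holds 1, while the windows of Ifi35, Trim25 and Ifitm1 hold none.

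Immediate early genes, which cells transcribe within minutes of a stimulus, were called in a single direction. Of 20 tested (of 28 listed) 5 were called higher and 0 lower, 18 had a positive difference and the median was 0.50. Over all genes 2.37% were called higher and 3.22% lower, and 3957 of 7925 differences were positive. The zinc finger factor Egr1 was at 8.49, 9.74 and 10.08 on the D2 arrays, against 6.34, 7.63 and 7.12 on the B6 arrays (2.41 ± 0.46, adjusted p = 0.00109). The survival gene Ier3 was at 10.22, 10.70 and 10.75 in D2 progenitors and 8.32, 8.97 and 8.56 in B6 progenitors (1.94 ± 0.26, adjusted p = 1.11e-05). Dusp1, a phosphatase that switches off MAP kinases, was at 8.03, 10.13 and 11.03 on the D2 arrays, against 7.09, 8.00 and 7.61 on the B6 arrays (2.16 ± 0.52, adjusted p = 0.011). For Dusp1 the lowest D2 array lay only just above the highest B6 array, and D2 arrays 2 and 3 lay well above it. Zfp36, which destabilises cytokine mRNAs, was higher by 2.07 ± 0.48 (adjusted p = 0.00783). Socs3, an inhibitor of cytokine receptor signalling, was seen on all 3 D2 arrays, against 0 of 3 B6 arrays, and its level was at least 2.22-fold higher. The difference of Socs3 was 1.12 ± 0.22 above the mean of the other cell types (adjusted p = 0.00861). Fos (1.61), Jun (1.19) and Junb (1.02) did not pass.

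Over the 20 immediate early genes the mean level was 6.01, 6.63 and 6.95 on the D2 arrays, against 5.52, 5.89 and 5.79 on the B6 arrays, with D2 array 3 again the highest. With median or 75th percentile scaling 0 were called. Without D2 array 3, 3 were called in place of 5, with Dusp1 (adjusted p = 0.127) and Zfp36 (0.0944) lost. Dusp1 was also lost without D2 array 2 (0.0596) or B6 array 1 (0.0782), and Zfp36 without B6 array 3 (0.05). Of 18 tested inflammatory NF-kB target genes 3 were called, all higher in D2 and all chemokines that attract myeloid cells and lymphocytes. Ccl4 was at 7.30, 9.10 and 9.54 on the D2 arrays, against 5.18, 6.10 and 5.19 on the B6 arrays (3.15 ± 0.56), while its second probe missed the threshold (0.99). Ccl3 was higher by 2.08 ± 0.47 (adjusted p = 0.00562) and Ccl9 by 1.20 ± 0.35 (0.039). Without D2 array 3 only Ccl4 stayed called (Ccl3 adjusted p = 0.0574, Ccl9 0.102), and Ccl9 was also lost without D2 array 1 (0.146) or 2 (0.0524) or B6 array 1 (0.267) or 3 (0.0901).

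The windows before the starts of Dusp1 (chr17:26508473-26508722, minus strand), Zfp36 (chr7:28379229-28379478, minus strand) and Ier3 (chr17:35821463-35821712, plus strand) are shown since each holds 1 match to a different stimulus-response motif, in capitals.
Dusp1: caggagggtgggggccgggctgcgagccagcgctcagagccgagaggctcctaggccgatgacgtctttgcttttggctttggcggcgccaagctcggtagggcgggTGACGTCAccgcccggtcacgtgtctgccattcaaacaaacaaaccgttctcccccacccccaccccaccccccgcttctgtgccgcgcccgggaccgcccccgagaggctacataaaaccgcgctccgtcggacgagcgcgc
Zfp36: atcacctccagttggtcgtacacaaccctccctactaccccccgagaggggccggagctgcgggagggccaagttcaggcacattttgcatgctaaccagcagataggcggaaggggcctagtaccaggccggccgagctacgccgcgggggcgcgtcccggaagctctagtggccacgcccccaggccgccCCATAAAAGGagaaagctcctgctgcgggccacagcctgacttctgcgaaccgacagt
Ier3: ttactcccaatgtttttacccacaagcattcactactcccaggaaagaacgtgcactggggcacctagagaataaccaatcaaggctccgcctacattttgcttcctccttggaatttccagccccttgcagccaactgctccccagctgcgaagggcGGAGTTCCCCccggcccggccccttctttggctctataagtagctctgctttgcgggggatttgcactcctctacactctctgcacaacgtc
In Dusp1 the match is the cyclic AMP response element TGACGTCA (1.55% of 32851 windows), in Zfp36 a CArG box, bound by serum response factor (1.47%), and in Ier3 an NF-kB site (7.25%). All 3 motifs were searched on both strands, and the window of Socs3 holds none of them.

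Lists of growth and protein turnover had medians below that of all genes and few calls. Of 20 tested DNA replication genes 0 were called by limma, 1 had an unadjusted p under 0.05 and all 20 had a negative difference, with a median of -0.22. Rfc5, a clamp loader subunit, was at 9.02 ± 0.18 in D2 and 9.68 ± 0.08 in B6 progenitors (adjusted p = 0.0952), and the ribonucleotide reductase subunit Rrm2 at 7.71 ± 0.11 and 8.37 ± 0.05 (0.444). Of 16 tested mitosis genes 1 was called. This was the spindle checkpoint kinase Bub1b, lower by 1.12 ± 0.24 (adjusted p = 0.00337), while its other probe gave 0.22. Of 24 tested proteasome subunits 2 were called, both lower and both catalytic. Psmb6 was at 4.32, 4.22 and 4.30 on the D2 arrays, detected on none, against 9.36, 9.41 and 9.46 on the B6 arrays, and at least 20.7-fold lower, with its other probe at -4.66. Psmb5 was at 6.59, 5.66 and 5.41 in D2 progenitors and 7.63, 8.01 and 7.06 in B6 progenitors (-1.67 ± 0.30, adjusted p = 0.000425). None of the other 22 subunits passed, and the list's median was -0.19.

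Mitochondrial protein import genes had 2 of 16 tested members called lower, the receptor subunit Tomm22 (at least 14.3-fold, undetected on every D2 array) and the small carrier Timm13 (-0.59 ± 0.16, adjusted p = 0.0335). Timm13 lost its call when any array but D2 array 2 was left out (adjusted p from 0.0703 to 0.191). Of 17 tested ribosome biogenesis genes 1 was called. Polr1b, a subunit of RNA polymerase I, was at 4.40, 4.41 and 4.19 on the D2 arrays, detected on none, against 6.91, 6.61 and 6.95 on the B6 arrays, and at least 3.44-fold lower. The departure of Polr1b from the mean of the other cell types was -1.42 ± 0.21 (adjusted p = 0.000466), with its D2 level between 4.24 and 4.35 in all 4 cell types. Among 10 tested heat shock and chaperone genes 0 were called and 0 had an unadjusted p under 0.05 (median -0.17). The constitutive Hspa8 gave -0.32 (adjusted p = 0.458) and the chaperonin Hspe1 0.48 (0.685).

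**Figure D4:**
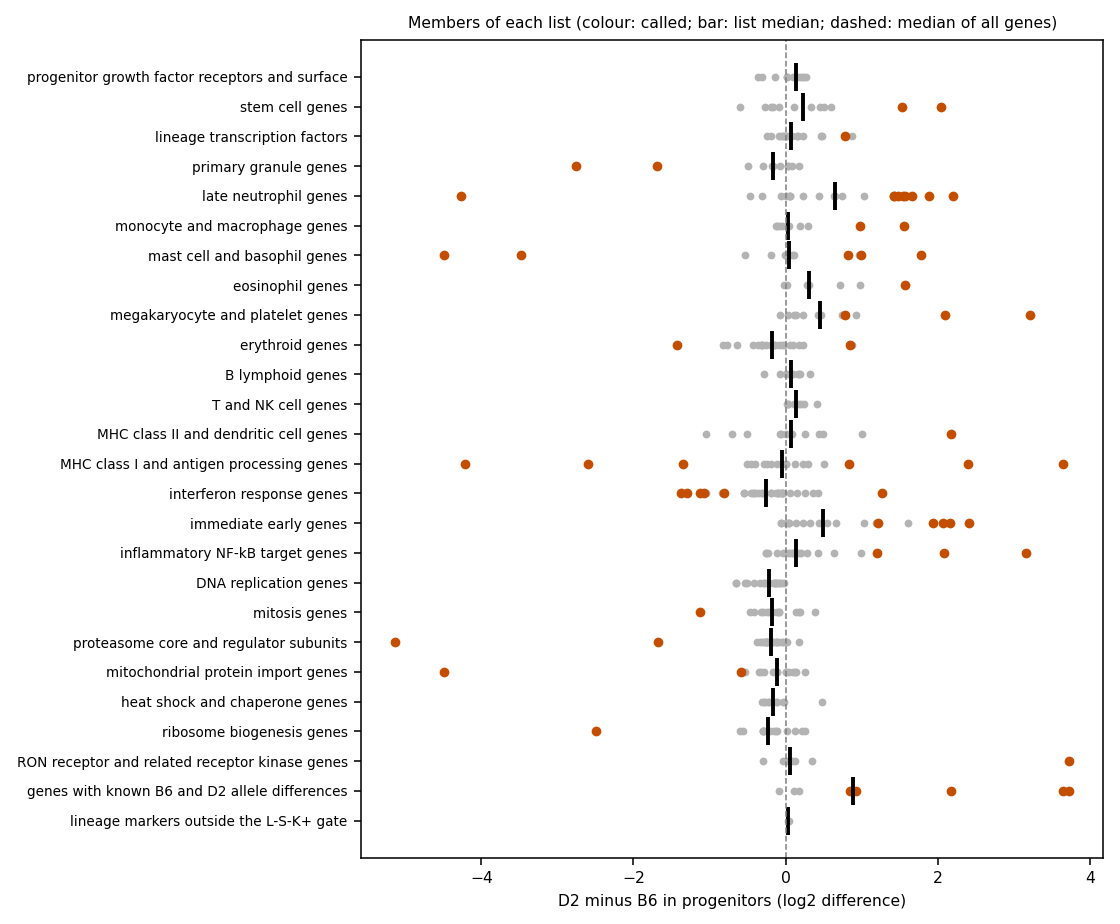
D2 minus B6 log2 difference in progenitors (horizontal axis) of every tested member of 26 gene lists (points), with called genes in colour, a bar at each list's median and a dashed line at the median of all 7925 genes. The medians of most lists lie within 0.3 of the dashed line, and those of late neutrophil (0.66), immediate early (0.50) and megakaryocyte (0.45) genes lie to its right, as does that of the known allele differences (0.89).

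Of 8 tested genes with allele differences known between the strains, 5 were called, all higher in D2. Beside H2-Ea, H2-K1, Mst1r and Alad these included Glo1, the enzyme that detoxifies methylglyoxal. For H2-K1 this holds for the probe used, while another of its probes was called lower in D2. Both Alad and Glo1 are known to be duplicated in DBA/2 mice. Glo1 was at 11.37, 11.60 and 11.65 on the D2 arrays, against 10.65, 10.42 and 10.76 on the B6 arrays (0.93 ± 0.19, adjusted p = 0.00176), or 1.91-fold higher. It was higher by 1.07, 0.96 and 0.71 in LSK, Gr1+ and Ter119+ cells, each of which passed, and the progenitor difference lay 0.02 from their mean. Hbb-b2 and Klrd1 were detected on none of the 6 arrays.

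Agreement between probes of a gene was uneven. Of the 443 called genes, 308 had a single kept probe. Among the 135 with several, every kept probe was called the same way for 32 (9 higher and 23 lower in D2), some but not all others for 10, and no other probe for 88 (42 higher and 46 lower), while 5 had a probe called the opposite way. Genes higher in D2 by every probe included Inppl1, a lipid phosphatase (2.04 and 1.94), the adaptor subunit Ap5b1 (2.39 and 1.25), the Wnt co-receptor Ryk (1.57 and 1.40), the vesicle protein Vamp4 (1.43 and 0.67), the nonsense-mediated decay helicase Upf1 (1.40 and 0.99), Tm9sf4 (0.96 and 1.11) and Mettl17 (0.67 and 0.94). Inppl1 was at 7.55, 7.99 and 8.06 on the D2 arrays, against 5.86, 5.92 and 5.71 on the B6 arrays. Lower by every probe were the lipid transfer protein Stard10 (-2.78 and -1.10), Wdr46 (-2.41 and -2.34), the hydrolase Rbbp9 (-1.51 and -1.32), the peroxisomal transporter Abcd3 (-1.5 and -0.83), the aminopeptidase Rnpep (-1.42 and -0.70), Ccdc124 (-1.33 and -0.81), the ribosomal protein Rpl29 (-2.85 and -4.90) and Erdr1 (-2.71 and -2.77). Stard10 was at 4.51, 4.95 and 4.48 on the D2 arrays, against 7.79, 7.23 and 7.27 on the B6 arrays. Its difference was also large in Ter119+ cells (-3.67) but small in Gr1+ cells (-0.21). In Gr1+ cells the probe was near background in both strains, at 4.32 in D2 and 4.53 in B6. Wdr46 was undetected on every D2 array and at least 3.32-fold lower. The call of Ryk was lost when any of the 6 arrays was left out (adjusted p from 0.063 to 0.176), that of Mettl17 without D2 array 2 (0.0828) or B6 array 2 (0.089), and that of Tm9sf4 without D2 array 3 (0.098).

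Among genes detected in 1 strain alone, the membrane protein Emp1 was at least 2.56-fold higher and the inactive rhomboid Rhbdf1 at least 2.88-fold higher in D2 progenitors. The adaptor Samsn1 and the lipase Abhd16a were undetected on every D2 array and at least 14.4-fold and 14.2-fold lower. Samsn1 was at 4.61, 4.18 and 4.45 on the D2 arrays, against 8.76, 8.78 and 9.14 on the B6 arrays, and it was called lower in D2 in the other 3 cell types as well.

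Most calls in progenitors were shared with another cell type of the same strains. LSK cells shared 286 calls, which are 64.6% of the progenitor calls and 43.3% of the 661 LSK calls, and 2 of them had the opposite sign. Gr1+ cells shared 208 (47.0% of the progenitor calls and 46.3% of 449), 1 with the opposite sign, and Ter119+ cells shared 291 (65.7% and 21.5% of 1352), 3 with the opposite sign. Of the 443 genes, 152 were called in all 3 other cell types, 108 in 2 of them, 113 in 1 and 70 in none. By chromosome, the share of tested genes called was highest on chromosomes 14 and 17 (8.99% on each), of which chromosome 17 carries the MHC and held 22 higher and 17 lower genes among 434, and lowest among the autosomes on chromosome 5 (2.79%).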

How the data were processed

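Total RNA of 4 bone marrow cell types from 2 strains was labelled and hybridised to 24 Illumina mouse WG-6 v2 bead arrays, 3 per group. The deposited probe values are raw intensity, exported with GenomeStudio per the submitters' processing notes and not yet normalized between arrays. Beside each, the authors deposited a column headed as a p-value that holds a fraction between 0 and 1, read as 1 minus the detection p because it rises with intensity. The authors' deposited series matrix holds log2 values, used as an alternative, and each lies within 0.00113 of a plain quantile normalization of the raw values. A further 24 call columns were not used.

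Of 45281 probes, 34885 have 1 gene symbol in the array annotation, 18 several and 10378 are not listed. The Entrez identifiers of 34807 were found in the RefSeq table, and 78 kept the annotation's symbol. Intensities were background-corrected and quantile-normalized with neqc (offset 16) of limma 3.58.1 in R 4.3.3. A probe was kept if some group had a detection p under 0.01 on each of its 3 arrays (12668, of which 11034 named), and each gene was read by its kept probe of highest mean, which gave 7925 genes. A linear model with 1 mean per group (16 residual degrees of freedom, prior 6.97) gave D2 minus B6 in progenitors, and that difference minus its mean over the other 3 cell types. Tests were moderated and two-sided, adjusted by Benjamini and Hochberg over all genes and called under 0.05. The ± after a level is the SD and after a difference the SE. The number of arrays limits the precision. Batch, slide and scan date are not given in the sources used here. The models were tested on simulated data.

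Where a gene was detected on every array of 1 strain and none of the other, the fold is a lower bound, with each undetected array set to its lowest detected signal or the gene's own value if higher. The members and the 26 gene lists were chosen with earlier results of these data known. Genes were named by rule. It took the 10 highest and 10 lowest called genes with 2 or more probes that all agree and no overlap of the strains. Of the higher ones 9 met this. It also took the 6 highest and 6 lowest departures from the other cell types among genes also called in progenitors. Provisional symbols were left out of both. Added were up to 4 called genes each way detected in 1 strain alone and the genes of known allele difference. Each list gave its called members or else its 2 members of largest change. Other list members with values were named for their role after their values were seen. Promoter windows are RefSeq's, for 80 of 95 named genes. Alternatives tried were scaling to the median or to the 75th percentile, leaving the background uncorrected, the series matrix values, no detection filter or detection on all 6 arrays, the mean of a gene's probes, blocking on replicate number, a fit on the 6 arrays alone, a trend with robust variance, array weights, a 2-fold minimum and each progenitor array left out. Figures were drawn with Python 3.11.15 and matplotlib 3.10.9.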

Additional observations from a re-analysis of the deposited data

Results flagged for a closer look

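In 20 of the genes named above, the D2 minus B6 difference in progenitors departed from the mean of the differences in LSK, Gr1+ and Ter119+ cells, by the limma test of that departure. Each departure below is on the log2 scale and was tested over 7925 genes.

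The progenitor difference lay above the mean of the other cell types for the receptor kinase Mst1r (3.54), the IgE receptor chains Fcer1g (2.28) and Fcer1a (1.92), Rap1gap (1.93), Pfas (1.52), Haao (1.48), Ifitm1 (1.29) and Socs3 (1.12). Mst1r averaged from 4.29 to 4.83 over both strains of the other cell types, so its departure follows the D2 progenitor level. The D2 levels of Fcer1g and Haao stayed near background in all 4 cell types, so their departures follow the B6 level. The difference lay below the mean for H2-Ea (-3.19), Hdc (-2.54), Rnase2a (-1.97), Ttc27 (-1.71), Hbb-b2 (-1.62), Fgd6 (-1.56), Bex4 (-1.51), Polr1b (-1.42), Fcgr3 (-1.28), Stard10 (-1.20), H2-Q8 (-1.05) and Wdr46 (-1.01). Likewise Ttc27, Polr1b and Wdr46 stayed near background in D2, and H2-Ea in B6, in all 4 cell types. In B6, Rnase2a was near background (4.22 to 4.27) in progenitors, LSK and Ter119+ cells and averaged 5.42 in Gr1+ cells. Stard10 was near background in both strains in Gr1+ cells. Hbb-b2, a beta globin, was detected on none of the 6 progenitor arrays and was 4.25 higher in D2 Ter119+ cells.

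Leaving out 1 progenitor array ended the departure of Bex4 (without D2 array 2 or 3 or B6 array 1), Fcgr3 (any array but D2 array 3), H2-Q8 (D2 array 2 or 3 or B6 array 1 or 2), Stard10 (any array but D2 array 2), Pfas (D2 array 3), Ifitm1 (B6 array 3) and Socs3 (B6 array 3).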

How the results depend on the processing

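The count of genes called between D2 and B6 progenitors (443) moved with the scaling of the arrays, the detection filter and array weights. It was 118 with median scaling, 187 with the 75th percentile, 238 with detection asked for on all 6 arrays, 871 with array weights and 259 with a 2-fold minimum, and from 324 to 425 with 1 progenitor array left out. The other alternatives gave from 359 to 472. The count of departures from the other cell types (71) was 3 with median scaling and 3 with the 75th percentile, 5 with detection on all 6 arrays, 178 with array weights, and from 46 to 68 with 1 progenitor array left out. The cause of these shifts was not tested. Of the 80 called genes named, 24 kept their call under every alternative that measured them and 56 lost it under at least 1, none with a change of sign. Without D2 array 3, which had the highest late neutrophil and immediate early levels, 22 of the 80 lost it. Array weights gave D2 array 1 a weight of 0.264, D2 array 2 2.11, D2 array 3 0.899 and the B6 arrays from 0.971 to 1.15. In the other cell types, D2 LSK array 2 had a weight of 0.0971 and B6 Ter119+ array 2 of 0.139.

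Same-numbered D2 and B6 progenitor arrays did not deviate together (correlations of their deviations 0.06, -0.30 and 0.24), and not every array correlated best with its own number, so the numbers do not pair them. With replicate number as a block, 409 genes were called and 58 departures passed. The number of arrays and, for dim probes, the signal over background limit what could be detected.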
